A study of Mus musculus with 6 samples.

Results

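Interferon and JAK-STAT genes were examined in ID4-GFP+ spermatogonia, mitotic germ cells of the mouse testis marked by a GFP reporter for ID4. The ID4 protein pairs with transcription factors of the basic helix-loop-helix (bHLH) kind and keeps them from DNA. The genes were taken by name from the deposited gene table: rows whose symbols belong to the Ifn, Ifi, Isg, Oas, Irf, Stat, Mx, Gbp, Jak, Tyk2 and Socs families, outside chromosome 15. The rule found 102 of 23355 rows, and 0 rows with such names were left out for lying on chromosome 15. The labels give 3 samples from testes with germ cell overexpression of ID4, called ID4 overexpression below, and 3 control samples. Both groups carry the reporter, since ID4-GFP+ cells were compared. The labels name no promoter that drives the extra ID4 and give no age for these animals; the 8-day-old pups in the series title belong to the reporter line alone.

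Cells sense interferon through cell-surface receptors that activate Janus kinases (JAKs), and these phosphorylate STAT proteins that enter the nucleus. A complex of STATs with IRF9 switches on genes whose promoters hold the interferon-stimulated response element (ISRE), among them the antiviral OAS, Mx, IFIT and GBP families. STAT dimers bind a shorter element, GAS, and SOCS proteins are induced as feedback inhibitors. The same kinases and STATs also carry signals of other cytokines and growth factors. In the mouse germ line, the IFITM family is known as a marker of primordial germ cells.

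Expression is the authors' FPKM, a fragment count divided by transcript length and by mapped fragments, with 1 combined value per group of 3 samples, so no replicate SD can be given and the depth of each library is unknown. A gene was called higher or lower where the authors tested it and its q-value (p-value adjusted for all tested genes) was at most 0.05. Id4 itself had 13.4 FPKM with ID4 overexpression, against 6.37 FPKM in controls, and was called higher. All 16 listed spermatogonia markers were tested, with summed levels of 2007 FPKM with ID4 overexpression and 2339 FPKM in controls. Of the 16, 5 were higher (Gfra1, Ret, Nanos2, Etv5 and Id4 itself), 4 were lower (Uchl1, Sohlh1, Lin28a and Utf1) and 7 were not called. Gfra1, a receptor for GDNF, had 37.3 FPKM with ID4 overexpression and 15.8 FPKM in controls, and Uchl1 had 464 FPKM with ID4 overexpression and 696 FPKM in controls.

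The genes of the receptor-to-nucleus pathway changed in part, with rises in Ifnar2, Ifngr1, Stat3, Stat6, Irf3, Socs2 and Socs5. Of the 51 genes in the interferon-induced families, 35 were under 1 FPKM in both groups, as were 11218 of all 23355 rows. The highest value in these families was 73.8 FPKM, for Ifitm2 with ID4 overexpression. The authors tested 38 of the 102 genes. Of these 38, 8 were higher with ID4 overexpression, set against 9.59% of all tested genes, and 2 were lower, set against 7.42%; 17% of all tested genes were called in either direction. At an authors' q of at most 0.01 the counts were 5 and 1, where 6.04% of all tested genes were higher and 4.09% lower. Among the 18 tested genes that overlap no exon of another gene, 3 were higher and 1 lower at the threshold of 0.05. The share over all tested genes without such an overlap was not computed. The median log2 fold change of the 38 was -0.03, and that of all tested genes was 0.01. Among 25 tested receptor, kinase, STAT, IRF and SOCS genes, 7 were higher and 1 was lower, whereas among 13 tested genes of the interferon-induced families 1 was higher and 1 lower. Whether these shares differ between the sets was not tested.

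**Figure D1:**
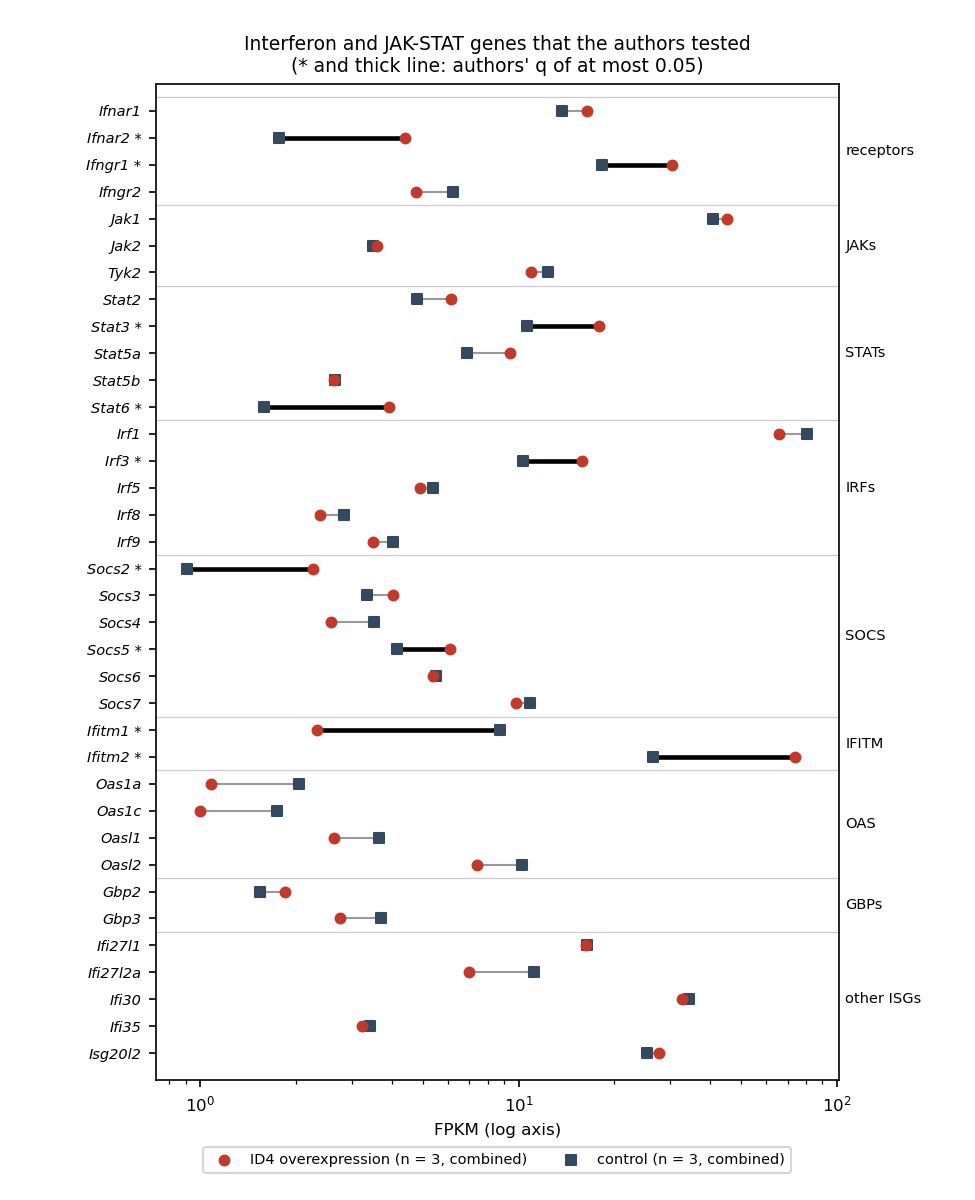
FPKM (log axis) of 36 of the 38 tested genes in role order. Each red circle is the combined value of 3 ID4 overexpression samples and each blue square that of 3 control samples, with a thick line and an asterisk for the 9 called genes shown. Ifitm2 lies far to the right in ID4 overexpression and Ifitm1 far to the left, while the values of Jak2, Stat5b and Socs6 nearly coincide.

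Most tested markers of macrophages, Sertoli cells and Leydig cells were higher in the same comparison, as were 2 markers of the fibroblast and myoid list. Macrophage and monocyte markers rose for 17 of 18 tested, and none fell. Their median log2 fold change was 1.98, and their summed level was 366 FPKM with ID4 overexpression and 99.4 FPKM in controls, 3.68-fold higher; none of the 19 found was at 0 in both groups. Sertoli cell markers, among them Dmrt1, which spermatogonia also express, were higher for 8 of 11 tested, with sums of 299.7 FPKM with ID4 overexpression and 141 FPKM in controls. Leydig cell markers were higher for 4 of 5 tested, with sums of 75.6 FPKM with ID4 overexpression and 26.7 FPKM in controls. Fibroblast and myoid markers were higher for 2 of 3, with sums of 49.6 FPKM with ID4 overexpression and 22.3 FPKM in controls. The 2 were Sparc (34.1 FPKM with ID4 overexpression, 11.5 FPKM in controls) and Pdgfra (5.39 and 2.33 FPKM). Of the 9 untested markers of this list, 6 had a higher value with ID4 overexpression and 3 a lower one. Among these, Acta2 had 1.10 FPKM with ID4 overexpression and 1.07 FPKM in controls, and Tagln had 1.39 and 1.45 FPKM. Of 15 lymphocyte markers 1 was tested and 0 were called, with sums of 6.87 FPKM with ID4 overexpression and 5.97 FPKM in controls, and Cd8a and Klrb1c were at 0 in both groups. Of 10 endothelial markers 1, Egfl7, was tested and was lower, at 13.7 FPKM with ID4 overexpression and 21.0 FPKM in controls. The sums with Egfl7 included were 18.1 FPKM with ID4 overexpression and 23.7 FPKM in controls. Of the 9 untested endothelial markers, 6 had a higher value with ID4 overexpression and 3 a lower one. The part of these cells in the rises of Ifnar2, Ifngr1, Stat3, Stat6, Irf3, Socs2, Socs5, Ifitm2 and the pathway lists was not tested. In such bulk samples, fewer cells of a type and less RNA per cell cannot be told apart.

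Call rates differed with the level. Of the 38 tested genes, 18 had a mean of 3 to 10 FPKM over both groups, and 3 of these 18 were called. Among all tested genes of that class 17.3% were called, and the 10th percentile of their called changes was 1.53-fold (an absolute 0.61 on the log2 scale). In the class of 1 to 3 FPKM, 3 of 8 of the 38 genes were called, against 23.4% of all tested genes. In that of 10 to 30 FPKM, 3 of 8 were called, against 16.6%, and in that of 30 to 100 FPKM 1 of 4, against 14.4%. The same percentile was 1.71-fold in the class of 1 to 3 FPKM and 1.44-fold in that of 10 to 30 FPKM. These percentiles describe changes already called and set no limit of detection, and genes not called cannot be said to be equal between the groups.

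The promoters of Ifitm2, Ifitm1, Ifnar2 and Stat3 are shown as examples from the called genes of the IFITM, receptor and STAT families. That of Ifit1 is shown because it is a textbook interferon target. Each is 300 bases from RefSeq on GRCm38.p6, from 250 bases before the gene's start to 50 after it, read 5′ to 3′ on the gene's strand. Capitals mark matches on either strand to the ISRE core (GAAA, any 2 bases, GAAA) or the GAS letters TTCNNNGAA. The windows are chr7:140955912-140956211 on the minus strand for Ifitm2, chr7:140967826-140968125 (plus) for Ifitm1, chr16:91372533-91372832 (plus) for Ifnar2, chr11:100939491-100939790 (minus) for Stat3 and chr19:34640639-34640938 (plus) for Ifit1.
Ifitm2: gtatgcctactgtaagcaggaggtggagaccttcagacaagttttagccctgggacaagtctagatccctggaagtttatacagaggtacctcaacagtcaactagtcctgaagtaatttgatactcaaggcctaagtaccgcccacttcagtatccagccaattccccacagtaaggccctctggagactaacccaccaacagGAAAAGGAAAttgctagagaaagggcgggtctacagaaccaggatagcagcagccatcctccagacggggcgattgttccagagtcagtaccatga
Ifitm1: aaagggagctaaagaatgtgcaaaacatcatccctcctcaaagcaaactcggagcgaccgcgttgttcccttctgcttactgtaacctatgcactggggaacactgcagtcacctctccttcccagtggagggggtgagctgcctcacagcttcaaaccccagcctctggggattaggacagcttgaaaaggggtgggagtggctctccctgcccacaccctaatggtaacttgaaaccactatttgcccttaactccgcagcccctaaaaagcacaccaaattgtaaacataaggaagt
Ifnar2: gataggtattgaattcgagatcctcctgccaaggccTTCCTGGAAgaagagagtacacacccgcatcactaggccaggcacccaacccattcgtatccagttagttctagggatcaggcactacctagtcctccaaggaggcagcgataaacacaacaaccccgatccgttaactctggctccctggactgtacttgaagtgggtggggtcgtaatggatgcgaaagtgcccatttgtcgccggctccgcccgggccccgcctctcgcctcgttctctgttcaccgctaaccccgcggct
Stat3: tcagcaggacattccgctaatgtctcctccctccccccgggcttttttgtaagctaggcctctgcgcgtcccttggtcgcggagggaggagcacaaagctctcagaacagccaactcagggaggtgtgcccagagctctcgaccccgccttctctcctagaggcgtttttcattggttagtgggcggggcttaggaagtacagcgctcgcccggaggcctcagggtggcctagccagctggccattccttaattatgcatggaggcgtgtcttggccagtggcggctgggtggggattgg
Ifit1: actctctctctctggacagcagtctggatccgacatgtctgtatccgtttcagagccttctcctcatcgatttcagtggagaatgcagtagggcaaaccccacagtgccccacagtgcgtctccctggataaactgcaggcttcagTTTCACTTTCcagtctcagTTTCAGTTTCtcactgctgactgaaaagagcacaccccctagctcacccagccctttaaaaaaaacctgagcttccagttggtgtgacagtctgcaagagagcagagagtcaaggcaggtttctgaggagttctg
In these letters, Ifitm2 has 1 ISRE core, at positions -46 to -37 from its start, and Ifitm1 has neither element. Ifnar2 has 1 GAS match, Stat3 has none, and Ifit1 has 2 ISRE cores on the opposite strand. No base lies in matches to both elements. Ifngr1 and Stat6, also called genes of the receptor and STAT families, have RefSeq promoters that are not shown and hold neither element. The RefSeq start used for Ifitm1 lies 647 bases from the 5′ end of its deposited row, so the window may not be the start used in these cells.

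Interferon ligand genes gave almost no signal. All 19 rows, which cover the alpha interferons, Ifnb1, Ifne, Ifng, Ifnk, Ifnz and the lambda interferons Ifnl2 and Ifnl3, went untested, and 13 were listed at 0 in both groups. The highest values were 0.295 FPKM with ID4 overexpression, for Ifna4, and 0.0920 FPKM in controls, for Ifne. Ifnb1, the beta interferon made on viral sensing, had 0.187 FPKM with ID4 overexpression and 0.0644 FPKM in controls. Ifng, the interferon of T and NK cells, was listed at 0 with ID4 overexpression and at 0.0869 FPKM in controls. Alpha interferon genes share sequence to differing degrees. The share of 50-base stretches also found in other genes ran from 6.4% for Ifna4 to 67.4% for Ifna1. Reads of the more alike genes may not have been assigned to single copies.

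Of the paired chains of the type I and the gamma interferon receptor, 1 each rose. Ifngr1, the ligand-binding chain of the gamma interferon receptor, had 30.4 FPKM with ID4 overexpression and 18.2 FPKM in controls, a 1.67-fold rise. Its partner Ifngr2 had 4.78 FPKM with ID4 overexpression and 6.24 FPKM in controls and was not called. Ifnar2, the high-affinity chain of the type I interferon receptor, rose 2.48-fold, to 4.39 FPKM with ID4 overexpression against 1.77 FPKM in controls. Its partner Ifnar1 had 16.4 FPKM with ID4 overexpression and 13.7 FPKM in controls and was not called. The authors' deposited table lists q = 0.000835 for Ifngr1, 0.0227 for Ifnar2, 0.299 for Ifngr2 and 0.321 for Ifnar1. Ifnlr1, of the lambda interferon receptor, was untested, at 0.603 FPKM with ID4 overexpression and 0.463 FPKM in controls. Whether the chains of a pair differ in their change was not tested.

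Ifnar2, Ifnar1 and Ifngr2 lie on chromosome 16 in a stretch of 191 kb that also holds Il10rb, a chain shared by interleukin-10 and lambda interferon receptors. Il10rb had 7.13 FPKM with ID4 overexpression and 3.62 FPKM in controls, and was called higher (q = 0.00215 in the authors' deposited table). The calls thus fell on the adjacent Ifnar2 and Il10rb. Gm21970, which overlaps Ifnar2 on the same strand, shares 8.87% of the 50-base stretches of the Ifnar2 transcript, so reads there could belong to either. At an authors' q of at most 0.01, Ifnar2 was no longer called.

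Janus kinases were expressed and none was called. Jak1, which serves all interferon receptors, had 45.0 FPKM with ID4 overexpression and 40.8 FPKM in controls. Tyk2, its partner at the type I receptor, had 10.9 FPKM with ID4 overexpression and 12.4 FPKM in controls. Jak2, which acts at the gamma interferon receptor, had 3.59 FPKM with ID4 overexpression and 3.50 FPKM in controls. The authors' test, of Cuffdiff layout, gave 0 calls among these 3, and 0 with an unadjusted p under 0.05. Jak3, the kinase of lymphoid cytokine receptors, was untested and at most 0.0151 FPKM.

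Among STATs, Stat3 and Stat6 rose. Stat3, which carries signals of the interleukin-6 and LIF family, was the most abundant and had 17.9 FPKM with ID4 overexpression and 10.6 FPKM in controls, 1.69-fold higher. Stat6, the STAT of interleukin-4 and interleukin-13, had 3.91 FPKM with ID4 overexpression and 1.59 FPKM in controls, 2.46-fold higher. Values of q in the authors' deposited table were 0.000835 for Stat3 and 0.00330 for Stat6. Nab2, whose exons overlap Stat6 on the opposite strand, had 3.74 FPKM with ID4 overexpression and 2.39 FPKM in controls and was not called.

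Stat2 and Irf9, which bind DNA together after type I interferon, were expressed. Stat2, specific to type I and lambda signalling, had 6.12 FPKM with ID4 overexpression and 4.81 FPKM in controls. Irf9, its DNA-binding partner, had 3.50 FPKM with ID4 overexpression and 4.04 FPKM in controls. Neither was called, and the log2 fold change was 0.35 for Stat2 and -0.21 for Irf9.

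Stat3 is 1 of 3 STAT genes within 159 kb of chromosome 11. Stat5a, which answers to growth hormone, prolactin and several interleukins, had 9.40 FPKM with ID4 overexpression and 6.88 FPKM in controls, with p = 0.0237 and q = 0.105 in the authors' deposited table. Its close relative Stat5b had 2.63 FPKM with ID4 overexpression and 2.66 FPKM in controls. In GENCODE, exons of Stat5a and Stat3 overlap on opposite strands, and whether strand was used in counting is not given in the sources used here. Stat4, the interleukin-12 STAT, was untested, at 0.615 FPKM with ID4 overexpression and 0.250 FPKM in controls.

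**Figure D2:**
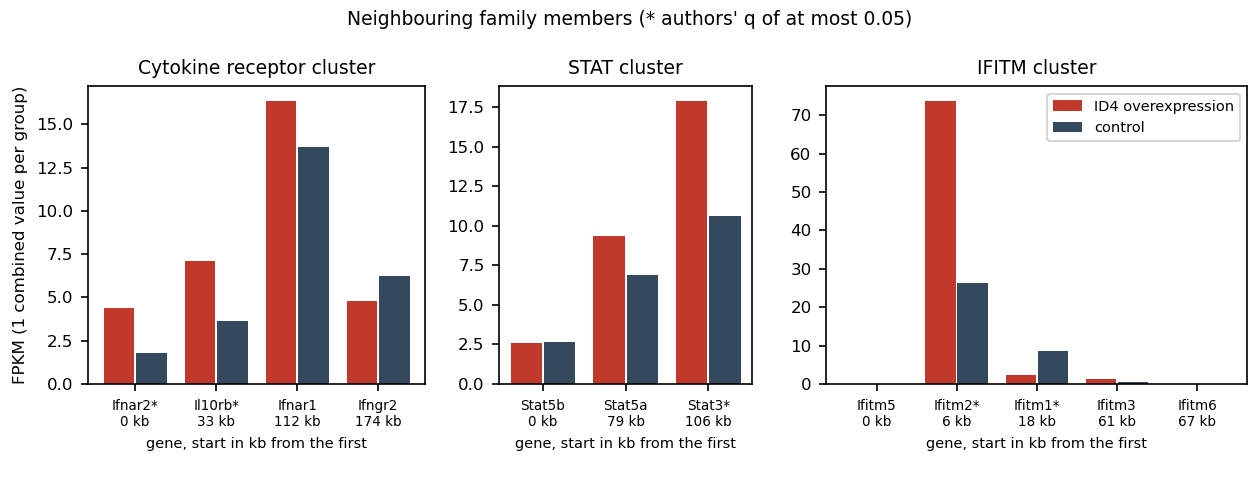
FPKM of neighbouring family members in 3 gene clusters, with the red bar for ID4 overexpression and the blue bar for controls (1 combined value each, linear axes from 0) and the start of each gene in kb from the first. Asterisks mark called genes; Ifitm2 was higher with ID4 overexpression (73.8 FPKM) than in controls (26.4 FPKM), and Ifitm1 lower (2.33 FPKM with ID4 overexpression, 8.72 FPKM in controls).

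Among interferon regulatory factors, Irf3 rose and the most abundant gene, Irf1, was not called. Irf3, the factor activated by viral sensors to switch on interferon genes, rose 1.53-fold, to 15.8 FPKM with ID4 overexpression against 10.4 FPKM in controls. Irf1, which is induced by gamma interferon, was the most abundant of the 102 genes in controls, and had 66.0 FPKM with ID4 overexpression and 80.8 FPKM in controls; it was not called. The authors' deposited table holds q = 0.0192 for Irf3 and 0.248 for Irf1. The call of Irf3 was lost at an authors' q of at most 0.01.

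Irf3 overlaps exons of another gene. Its opposite-strand neighbour, Bcl2l12, had 33.3 FPKM with ID4 overexpression and 24.5 FPKM in controls and was not called. Irf5 and Irf8, known from macrophages and other myeloid cells, were not called: Irf5 had 4.89 FPKM with ID4 overexpression and 5.40 FPKM in controls, and Irf8 had 2.37 FPKM with ID4 overexpression and 2.84 FPKM in controls. Irf7, the amplifier of the interferon response, was untested, at 0.581 FPKM with ID4 overexpression and 0.250 FPKM in controls. Irf2, a repressor, and the lymphoid Irf4 were also untested.

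Of 6 tested SOCS inhibitor genes, 2 were higher and 0 lower, set against 9.59% and 7.42% of all tested genes. Socs2, a feedback inhibitor of growth hormone signalling, had 2.26 FPKM with ID4 overexpression and 0.910 FPKM in controls, 2.48-fold higher. Socs5 rose 1.46-fold, to 6.07 FPKM with ID4 overexpression against 4.16 FPKM in controls. By the authors' deposited table, q was 0.00486 for Socs2 and 0.0487 for Socs5, the value nearest to the threshold. Socs2 shares 18.4% of its 50-base stretches with the genes Gm9847 and Gm8000.

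The SOCS genes best known as interferon and STAT3 feedback did not pass. Socs3, the STAT3-induced inhibitor of interleukin-6 signalling, had 4.03 FPKM with ID4 overexpression and 3.33 FPKM in controls. Socs1, the inhibitor of interferon receptors, was untested, at 0.432 FPKM with ID4 overexpression and 0.885 FPKM in controls. Socs7, the most abundant of the family in controls, had 9.83 FPKM with ID4 overexpression and 10.9 FPKM in controls. Socs4 and Socs6 were tested and not called, at log2 fold changes of -0.45 and -0.03.

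The IFITM genes, whose small membrane proteins block virus entry, held the largest rise and the largest decrease among the 38 tested genes. Ifitm2 had 73.8 FPKM with ID4 overexpression and 26.4 FPKM in controls, 2.80-fold higher. Ifitm1 had 2.33 FPKM with ID4 overexpression and 8.72 FPKM in controls, a log2 fold change of -1.90 (3.74-fold lower). For each of these, q was 0.000835 in the authors' deposited table, the smallest value it holds. On chromosome 7, Ifitm2 occupies positions 140954839 to 140955961 on the minus strand and Ifitm1 140967429 to 140969827 on the plus strand (GRCm38). The neighbours thus changed in opposite directions.

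Between copies of this family, reads may not be separable. Of the 50-base stretches in the Ifitm2 transcript, 48.5% also occur in transcripts of other genes, chiefly Gm45717, which overlaps it on the same strand, Gm11951 and Gm8865, against 6.36% for Ifitm1. Ifitm3, the member most studied against influenza virus, was untested, at 1.18 FPKM with ID4 overexpression and 0.450 FPKM in controls. Ifitm5, known from bone, and Ifitm6 were listed at 0 in both groups.

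No OAS gene was called, and all 4 tested had lower values with ID4 overexpression. These genes encode synthetases (Oas1a) or related proteins that sense dsRNA. Oasl2, the most abundant, had 7.40 FPKM with ID4 overexpression and 10.3 FPKM in controls, and Oasl1, a relative that restrains Irf7 translation, had 2.63 FPKM with ID4 overexpression and 3.65 FPKM in controls. Oas1a had 1.08 FPKM with ID4 overexpression and 2.04 FPKM in controls, and Oas1c had 0.997 FPKM with ID4 overexpression and 1.74 FPKM in controls. The authors' deposited table gives an unadjusted p under 0.05 to 3 of the 4 (0.0145 for Oas1a, 0.0191 for Oasl2 and 0.0251 for Oas1c), with q of 0.0741, 0.0905 and 0.109. Over all tested genes, 3100 of 10990 had an unadjusted p under 0.05. At an authors' q of at most 0.1, Oas1a and Oasl2 would be called lower, as would 9.77% of all tested genes. Oas1a shares 57.6% of its 50-base stretches with Oas1g and Oas1b. A value lower with ID4 overexpression was found for 5326 of all 10990 tested genes. Of 4 untested OAS genes above 0 in both groups, 3 had a higher value with ID4 overexpression and 1 a lower one, at no more than 0.383 FPKM.

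Other induced families were low or were not called. Of 11 guanylate-binding protein genes, GTPases that act on intracellular pathogens, 2 were tested: Gbp3 had 2.76 FPKM with ID4 overexpression and 3.70 FPKM in controls, and Gbp2 had 1.85 FPKM with ID4 overexpression and 1.54 FPKM in controls. Neither was called, and neither had an unadjusted p under 0.05. The untested Gbp7 had 1.44 FPKM with ID4 overexpression and 0.273 FPKM in controls, the highest level among all 64 untested genes. The 3 IFIT genes, whose proteins bind viral RNA, reached at most 0.787 FPKM with ID4 overexpression and 0.561 FPKM in controls, both for Ifit2. The antiviral GTPase gene Mx2 had 0.110 FPKM with ID4 overexpression and 0.608 FPKM in controls, and Mx1 had 0.232 FPKM with ID4 overexpression and 0.279 FPKM in controls. The DNA-sensing p200 genes were led by Ifi202b, at 0.608 FPKM with ID4 overexpression and 0.0815 FPKM in controls.

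Isg15, the ubiquitin-like modifier that is a standard readout of interferon exposure, was untested, at 0.471 FPKM with ID4 overexpression and 1.23 FPKM in controls. Ifi30, a lysosomal thiol reductase of antigen processing, was expressed at 32.5 FPKM with ID4 overexpression and 34.3 FPKM in controls. Isg20l2, a nuclease of ribosome biogenesis not known for a response to interferon, had 27.6 FPKM with ID4 overexpression and 25.3 FPKM in controls. Ifi27l2a had 7.01 FPKM with ID4 overexpression and 11.2 FPKM in controls. None of the 5 tested Ifi and Isg genes outside the families above was called by the authors' test, and 0 had an unadjusted p under 0.05.

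The untested genes set a limit to this account. In all, 60 of the 102 genes were under 1 FPKM in both groups, and 20 were at 0 in both. Of 37 untested genes with a value above 0 in both groups, 26 had a higher value with ID4 overexpression and 11 a lower one, 70.3% against 58.1% among all untested rows of the table. No call was possible for any of them.

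**Figure D3:**
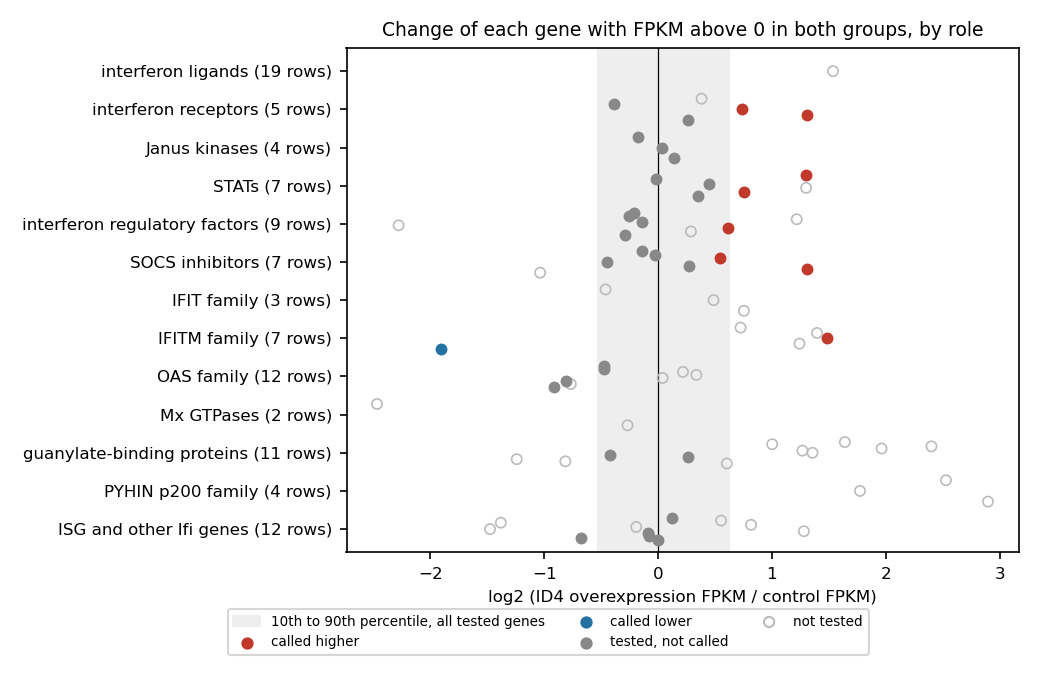
Log2 ratio of ID4 overexpression FPKM to control FPKM for 73 of the 75 genes above 0 in both groups, by role, with filled points for tested and open points for untested genes. The grey band spans -0.53 to 0.63, the 10th to 90th percentile of all tested genes; the open points beyond 1.5 on the right are genes at or under 1.44 FPKM.

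RefSeq promoters were found for 78 of the 102 genes, 91 windows in all, and for 7 of the 10 called genes. The ISRE core occurred on either strand in 30 of these windows, and in 3.44% of all 32851 promoters. GAS letters occurred in 26.4%, against 8.30% of all promoters, and the E-box CANNTG, bound by bHLH factors, in 63.7%, against 72.3%. The genes were chosen by names given for the interferon response, so neither the ISRE share nor the GAS share is an independent finding. Of 18 interferon ligand promoters, 10 held an ISRE core and 9 a GAS match. Many of these ligand genes share sequence, so their promoters may not count as separate cases. The counts were 16 and 9 of 41 promoters for the interferon-induced families. For receptors, kinases, STATs, IRFs and SOCS genes they were 4 and 6 of 32. Of the 30 tested genes with a promoter, 6 held an ISRE core: Ifitm2, Stat2, Oas1a, Oas1c, Gbp2 and Gbp3. Only Ifitm2 of these 6 was called, and the log2 fold changes of the other 5 lay between -0.91 and 0.35. Among the 7 called genes with a promoter, 1 held an ISRE core, 1 a GAS match and 3 an E-box. Over the promoters of all called genes of the table the shares were 2.77% for the ISRE core, 6.71% for GAS and 66.8% for the E-box, and over those of all tested genes they were 2.62%, 6.61% and 63.3%.

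Genes of the pathway outside the name rule were followed in 5 lists. The shares to set beside the counts of each list are those of all tested genes, 9.59% higher and 7.42% lower. The list of other interferon-induced genes held 31 tested genes, of which 9 rose, 1 fell and 21 were not called; their median log2 fold change was 0.21. Iigp1, an immunity-related GTPase, had 1.65 FPKM with ID4 overexpression and 0.270 FPKM in controls. Lgals3bp, a secreted glycoprotein, had 2.14 FPKM with ID4 overexpression and 0.401 FPKM in controls. Slfn2, a schlafen gene of lymphoid and myeloid cells, had 1.75 FPKM with ID4 overexpression and 0.352 FPKM in controls, and Psmb8, an immunoproteasome subunit, had 3.07 FPKM with ID4 overexpression and 0.840 FPKM in controls. Each was called, with q between 0.00153 and 0.0165 in the authors' deposited table, and the calls of Slfn2 and Psmb8 were lost at 0.01.

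Further genes of that list were picked with their values in view. B2m, the MHC class I light chain, had 96.4 FPKM with ID4 overexpression and 50.7 FPKM in controls and rose. The GTPase gene Irgm1 rose as well, to 27.3 FPKM with ID4 overexpression against 14.4 FPKM in controls, as did Shisa5, Tor3a and Ube2l6. The lower gene was Psme1, a proteasome activator subunit, at 149.7 FPKM with ID4 overexpression and 214 FPKM in controls. Usp18, the interferon-induced protease that removes ISG15, had 1.65 FPKM with ID4 overexpression and 2.69 FPKM in controls, and Bst2, which tethers virions, had 32.3 FPKM with ID4 overexpression and 25.8 FPKM in controls. Neither was called.

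In nucleic acid sensing, 2 of 12 tested genes rose and none fell; the median log2 fold change was 0.29. Tlr3, the endosomal dsRNA receptor, had 3.11 FPKM with ID4 overexpression and 1.27 FPKM in controls, and Mb21d1, which encodes the DNA sensor cGAS, had 3.28 FPKM with ID4 overexpression and 1.92 FPKM in controls. Of 10 tested JAK-STAT receptors and ligands, 3 rose and 1 fell; the median log2 fold change was 0.34. Il6st, the gp130 chain that signals through STAT3, had 6.22 FPKM with ID4 overexpression and 4.10 FPKM in controls, and Clcf1, a gp130-family ligand, had 6.77 FPKM with ID4 overexpression and 3.38 FPKM in controls. Il10rb, described above, was the other higher gene. The lower one was Lifr, the LIF receptor chain, with 6.49 FPKM with ID4 overexpression and 9.18 FPKM in controls. The authors' deposited table gives q = 0.0134 for Mb21d1, 0.0305 for Clcf1, 0.0241 for Il6st and 0.0269 for Lifr, and these 4 calls were lost at an authors' q of at most 0.01. Lifr lies on chromosome 15, where 56.2% of all tested genes were lower.

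Ptpn6, the phosphatase SHP-1, was the 1 gene called among 12 tested other JAK-STAT inhibitors, at 4.51 FPKM with ID4 overexpression and 2.54 FPKM in controls, and the list's median was -0.06. Its q in the authors' deposited table was 0.0210, so this call too was lost at 0.01. Of 15 tested STAT target genes outside the interferon set, 3 rose and 2 fell; the median log2 fold change was 0.07. Ccl2, a monocyte chemokine gene, had 78.8 FPKM with ID4 overexpression and 10.5 FPKM in controls. Cdkn1a, the p21 cell cycle inhibitor gene, had 18.2 FPKM with ID4 overexpression and 4.47 FPKM in controls. The other was Icam1, an adhesion molecule gene, with 10.1 FPKM with ID4 overexpression and 3.91 FPKM in controls. Bcl6, a transcriptional repressor, fell to 0.845 FPKM with ID4 overexpression, against 2.09 FPKM in controls. The kinase gene Pim3, on chromosome 15, also fell, to 2.24 FPKM with ID4 overexpression against 4.24 FPKM in controls. Pim3 and the STAT3 targets Pim1 and Mcl1 were picked with their values in view, and Pim1 and Mcl1 were not called, at log2 fold changes of -0.03 and 0.18. Over all 5 lists, each gene counted once, 18 of 79 tested were higher and 4 lower, and 18 were higher and 2 lower when chromosome 15 was left out, where 9.81% of all tested genes off that chromosome were higher and 5.51% lower.

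**Figure D4:**
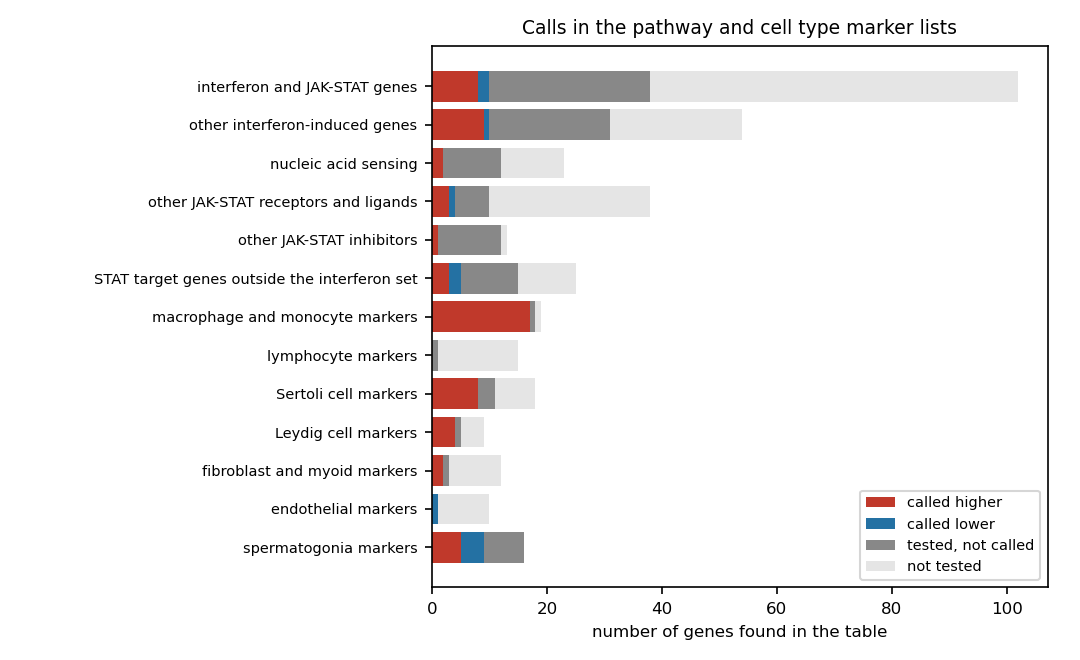
Number of genes found in the table for each list, split into called higher (red), called lower (blue), tested but not called (dark grey) and not tested (light grey). Macrophage markers are almost wholly red (17 of 18 tested), and 28 of the 38 tested interferon and JAK-STAT genes are dark grey. In the whole table, 9121 of 10990 tested genes were not called.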

How the data were processed

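RNA from ID4-GFP+ spermatogonia was sequenced in 6 mouse samples, 3 per group. The labels' protocols name Trizol extraction and oligo d(T) priming of the cDNA. The submitters' processing notes name TopHat, Cufflinks and mm9, and no version. The deposited table holds the authors' FPKM, 1 value per group, with the authors' p-value and q-value per gene in the layout of a Cuffdiff comparison, per the file headers. The authors tested 10990 of 23355 rows. Their q-values differed from a Benjamini-Hochberg adjustment by at most 4.77e-05. No values per sample were used, so no replicate could be left out and no depth or counting interval is given. The labels do not say that the 3 samples of a group came from separate animals or pools, so p-values measure only the spread between these samples, which may be technical.

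Of 21631 symbols in GENCODE M21, 99.1% overlapped the same GRCm38 gene, and adding 1 to the deposited starts matched 6605 gene starts, so positions are given as GRCm38, counted from 1, although the notes name mm9. Log2 fold changes are ID4 overexpression FPKM over control FPKM without a pseudocount. Exon overlaps (either strand) came from GENCODE M21, and 2 of the 102 genes had no match there. These 2 did not enter the settings that left out overlapping or sequence-sharing genes. Shared sequence is the percentage of 50-base stretches of a gene's longest protein-coding transcript, on either strand, found in transcripts of another gene. The read length is not given in the sources used here. Promoters are RefSeq's (GRCm38.p6), matched by symbol.

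Named are called genes, the 2 most abundant tested genes of a role without calls, the highest gene of each role, up to 4 called genes per list and Id4; other genes were added to describe a family and were picked with their values in view. Single values of 2 of the 102 genes are not reported here. The members and lists were chosen with earlier results of these data known. Lists are described by counts and medians, with no list test. Code for counts, folds and motifs was tested on simulated data. Python 3.11.15, pandas 2.3.3 and matplotlib 3.10.9 were used. Alternatives were q thresholds of 0.01 and 0.1, an FPKM of at least 1, an absolute log2 fold change of at least 1, pseudocounts of 1 and 0.1, subtraction of the median, and leaving out overlapping genes; genes with over 10% shared stretches and chromosome 15 were left out as alternatives added after seeing the data.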

Additional observations from a re-analysis of the deposited data

How the results depend on the processing

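The counts of higher and lower genes among the 102, 8 and 2, stayed the same with an FPKM of at least 1, with pseudocounts of 1 and 0.1 and after subtracting the median log2 fold change of all tested genes. They became 5 and 1 at an authors' q of at most 0.01, 8 and 4 at 0.1, 4 and 1 with an absolute log2 fold change of at least 1, and 3 and 1 among the 18 tested genes that overlap no other gene. Without genes that share over 10% of their 50-base stretches, and without Ifi27l1, which had no GENCODE match, they were 6 and 2 of 27. Fewer genes enter these last settings, and the shares of all tested genes under the fold, overlap and shared-sequence filters were not computed. The median log2 fold change of -0.03 became 0.22 over all 75 genes above 0 in both groups, tested or not. It became -0.14 over the 27 genes of the shared-sequence setting. The cause of these shifts was not tested. For the 5 pathway lists together, 18 higher and 4 lower genes became 11 and 1 at an authors' q of at most 0.01, 12 and 1 with an absolute log2 fold change of at least 1, and 18 and 2 without chromosome 15. Of 36 single genes named by the rule and tested, 11 were no longer called at 0.01 (among them Ifnar2, Irf3, Socs5, Clcf1, Il6st, Lifr, Mb21d1, Psmb8, Ptpn6 and Slfn2) and 1, Oasl2, was newly called at 0.1; pseudocounts and median subtraction changed no call or direction of the 36. No paired analysis was possible because the table gives 1 combined value per group. Leaving out replicates was not run for the same reason. Depth per sample is unknown, and 64 of the 102 genes were too low for the authors' test.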
